A study of Mus musculus with 18 samples.

Results

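The Wnt ligands described here are 10 genes, Wnt3, Wnt3a, Wnt8a, Wnt5a, Wnt5b, Wnt11, Wnt4, Wnt6, Wnt7b and Wnt9a. They were chosen by symbol, through their Ensembl identifiers, from the 49671 gene identifiers counted in the series, and all 10 were found. The Wnt family has 19 genes in this annotation, and the 9 others are given only as counts and for comparison. The series is a bulk poly(A) RNA-seq study of mouse embryonic stem (ES) cells grown as 3D cultures in growth factor-depleted Matrigel, an extracellular matrix gel, with 18 samples in 6 groups of 3.

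Wild-type E14 ES cells (labelled strain 12910la, passage 20) were cultured for 48 h in N2B27, a serum-free medium, in 4 conditions. The DMSO group received the solvent alone. CH cultures received 3 µM CHIR99021, an inhibitor of the kinase Gsk3, and 2i cultures received 3 µM CHIR99021 together with 0.4 µM PD0325901, an inhibitor of the kinase Mek. FGF2_Activin cultures received Activin A at 20 ng/ml and Fgf2 at 12 ng/ml. The other 2 groups came from an Esrrb fl/fl ES cell line that carries a tamoxifen-inducible Cre recombinase (MerCreMer), labelled with the strain Acr-EGFP and passage 25, and every one of these 6 cultures received 3 µM CHIR99021 for 24 h. Esrrb_NT cells had no 4-hydroxytamoxifen (4OHT), and Esrrb_4OHT cells had 4OHT for 1 day before the 3D culture. No group has 4OHT without the floxed allele, so the effects of the agent and of the deletion cannot be told apart. The lines differ in origin, passage and culture time, so values are compared within a line only. Before the 3D culture all cells had been kept in 2i with 4 ng/ml Lif.

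Wnt proteins are secreted, lipid-modified ligands. In the canonical branch a ligand bound to a Frizzled receptor and Lrp5 or Lrp6 blocks the Gsk3-containing complex that degrades β-catenin, which then acts with TCF/LEF factors on target genes. CHIR99021 blocks Gsk3 inside the cell and so acts below the ligands. Wnt3, Wnt3a and Wnt8a are ligands of the canonical branch with roles in primitive streak formation, while Wnt5a, Wnt5b and Wnt11 are best known for β-catenin-independent signalling in cell movement and polarity. Porcn, an acyltransferase, adds the lipid that Wnt proteins need for release, and Wls carries them to the cell surface.

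Libraries held between 25388139 and 37158661 counts in the E14 samples and between 19915222 and 20140699 in the Esrrb line. In every group, replicate 1 stood apart from the others. The mean chi-square per gene between its counts and those of replicate 2 or 3 was 11.8 to 65.9, against 1.46 to 8.57 between replicates 2 and 3. The labels do not say whether a replicate is a separate culture, so p-values measure the spread between these samples, which may be technical. Esrrb itself had 144, 111 and 110 CPM, the count scaled to library size, in Esrrb_NT and 58.1, 62.7 and 58.7 CPM in Esrrb_4OHT, a log2 fold change of −0.99 ± 0.10 (SE, edgeR adjusted p = 7.44e-05). Counts are summed over the whole gene and can include exons outside the deleted stretch. All 6 ES cell markers of the marker list had a mean of at least 1 CPM in every group, but their levels differed. Between DMSO and CH, mean CPM was 84.7 and 341 for Sox2, 25.6 and 294 for Nanog, 15.4 and 321 for Esrrb. It was 42.8 and 395.5 for Zfp42, 603 and 832 for Pou5f1 and, in the other direction, 687 and 242 for Utf1. All 6 had a lower mean in Esrrb_4OHT than in Esrrb_NT, with Sox2 at 54.7 against 298 CPM.

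The summed level of the 10 ligand genes was severalfold higher under Gsk3 inhibition, and the make-up of the ligand pool changed with each condition. Levels of different genes are compared per kilobase of exon. The summed level was 2.77 ± 0.17 CPM per kilobase (SD, n = 3) in DMSO, 5.38 ± 1.74 in FGF2_Activin, 38.3 ± 3.2 in CH and 11.04 ± 1.64 in 2i. Samples of CH, from 35.1 to 41.5, and of 2i, from 9.14 to 12.0, lay above every DMSO and FGF2_Activin sample, of which the highest was 6.49. In the Esrrb line the sum was 44.6 ± 7.2 in Esrrb_NT and 95.2 ± 10.7 CPM per kilobase in Esrrb_4OHT, and the 2 groups did not overlap. These sums are descriptions without a test, and in bulk samples fewer cells expressing a gene and less RNA per cell cannot be told apart.

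**Figure D1:**
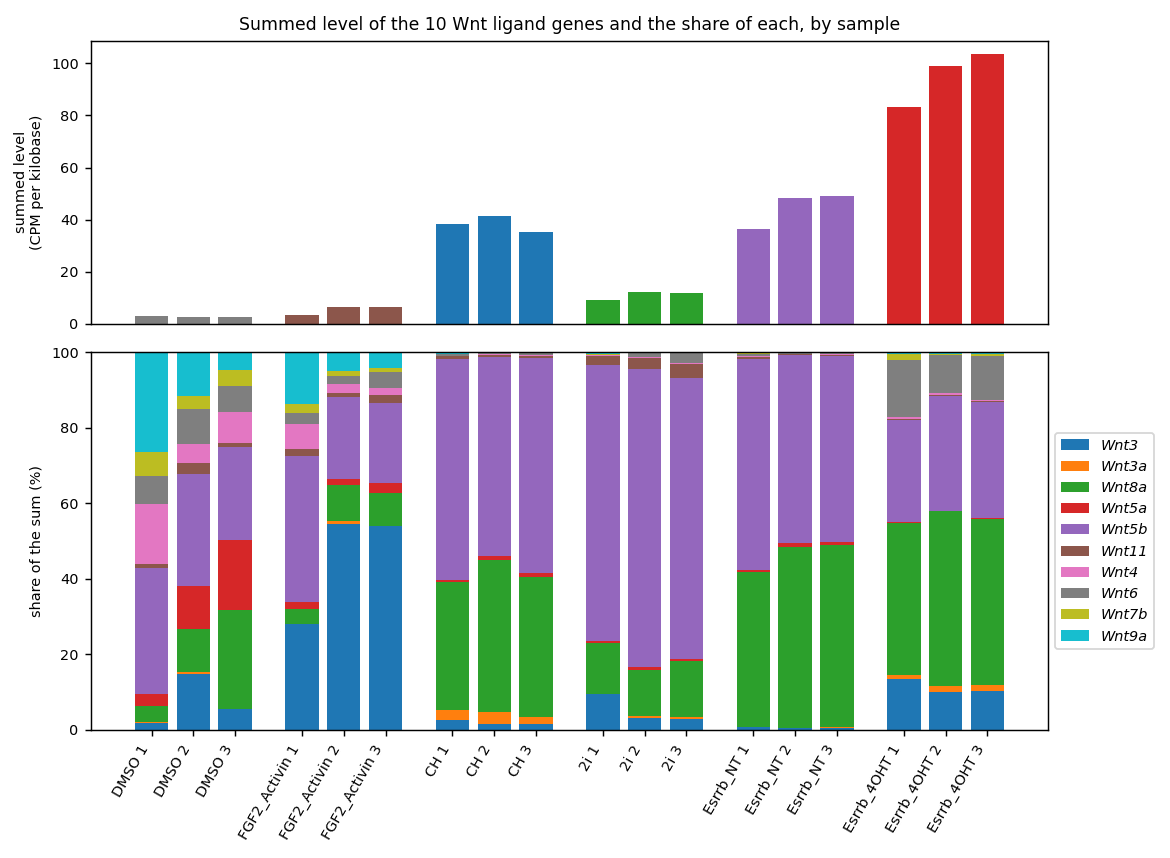
Summed level of the 10 Wnt ligand genes in CPM per kilobase of exon (upper bars, 1 per sample, coloured by group) and the share of each gene in that sum in percent (lower stacked bars, coloured by gene as in the legend), for 3 samples in each of 6 groups. Wnt5b and Wnt8a fill most of every CH, 2i and Esrrb_NT bar, Wnt3 takes 45.5% on average in FGF2_Activin, and Wnt6 and Wnt3 appear as large shares in Esrrb_4OHT.

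No group had all 10 ligands at a mean of 1 CPM or more, the level called detected here. Esrrb_4OHT had 9, CH had 6, DMSO and 2i had 4 each, and FGF2_Activin and Esrrb_NT had 3 each. Every member reached that level in at least 1 group. A gene with no sample over 3 counts in a group was taken as at or under the floor, which is 0.0803 to 0.161 CPM in these libraries. Wnt3a was at or under the floor in DMSO, FGF2_Activin and Esrrb_NT, Wnt7b in CH, and Wnt9a in Esrrb_NT. Whether these genes are silent there or below what this depth shows cannot be told apart. The DMSO count rested on replicate 1, since without that sample only 2 members, Wnt5a and Wnt5b, had a mean of 1 CPM.

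Ordered by level per kilobase, Wnt5b stood first in DMSO, CH, 2i and Esrrb_NT. In CH it had 21.4 ± 1.3 CPM per kilobase and Wnt8a had 14.3 ± 2.2, which were 56.1% and 37.2% of the summed level. These 2 groups of values did not overlap, and Wnt3a followed far below at 0.982 ± 0.279. In 2i Wnt5b made up 75.5 ± 3.2% of the sum, with 8.355 ± 1.498 CPM per kilobase, and Wnt8a 13.5 ± 1.4%. In DMSO the first 8 ligands, from Wnt5b at 0.812 ± 0.162 CPM per kilobase down to Wnt7b at 0.130 ± 0.054, each overlapped the next in the order. In FGF2_Activin Wnt3 came first, at 2.62 ± 1.46 CPM per kilobase, and its samples overlapped those of Wnt5b at 1.35 ± 0.04. Wnt5b and Wnt8a also overlapped in Esrrb_NT, at 22.9 ± 2.3 and 20.6 ± 4.9 CPM per kilobase. Wnt8a led in Esrrb_4OHT at 41.6 ± 7.1, followed without overlap by Wnt5b at 28.1 ± 4.9, and then by Wnt6 at 11.6 ± 1.4 and Wnt3 at 10.6 ± 0.7 CPM per kilobase, which overlapped each other.

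**Figure D2:**
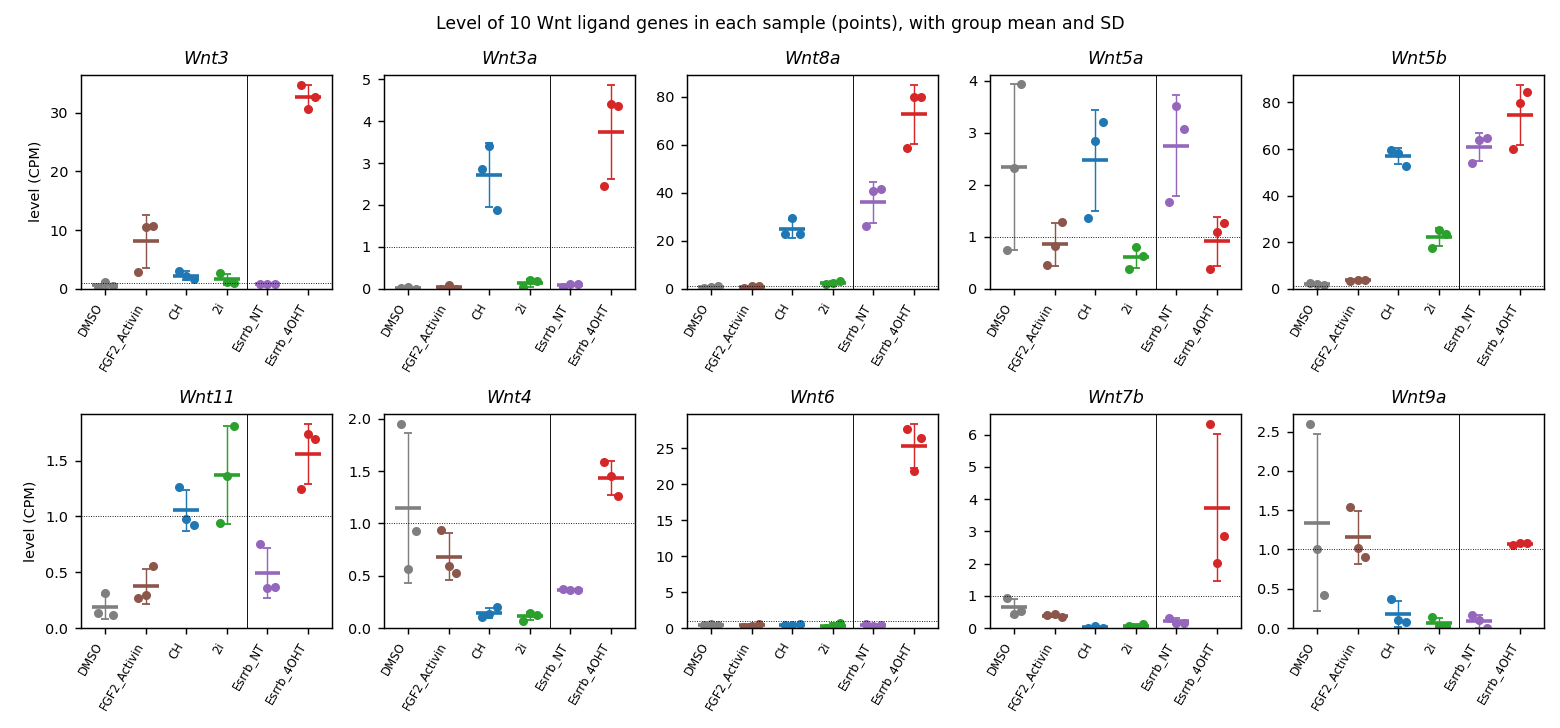
Level of each of the 10 Wnt ligand genes in CPM (y axes from 0, each with its own scale) in the 3 samples of every group (points), with the group mean (bar) and SD (whiskers). The dotted line marks 1 CPM and the vertical line separates E14 cells from the Esrrb line. Wnt6 lies between 21.9 and 27.7 CPM in Esrrb_4OHT and below 1 CPM in every other sample.

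Changes were tested by quasi-likelihood in edgeR, and p-values were adjusted over all genes by Benjamini-Hochberg. A gene was called when its adjusted p was below 0.01 and its log2 fold change was beyond 1 in either direction. All 10 members passed the low-count filter in both cell lines, Wnt3a in E14 cells only through CH. A call of Wnt3a could therefore only be higher in CH minus DMSO and lower in 2i minus CH, and the counts that include it are descriptions. With no such filter 7 and 3 members were called in these 2 comparisons, as with it, where 3016 and 389 of 29782 genes were called. Between CH and DMSO 7 of the 10 were called, 4 higher and 3 lower in CH, where 17.7% of the genes tested were called, 7.51% higher and 10.2% lower. Between 2i and DMSO it was 6 of 10, 3 higher and 3 lower in 2i, with 22.3% of all genes called, 8.37% higher and 14% lower. Adding the Mek inhibitor to CH lowered 3 members and raised none, with 1.99% of all genes called, 0.317% higher and 1.67% lower. FGF2_Activin against DMSO gave 0 of 10 with 1.25% of genes called, 0.902% higher and 0.347% lower, while 3 members reached an unadjusted p under 0.05. DESeq2 called 1 member there, with 374 of 16413 genes called. With the replicate number as a block 2 members were called, with 424 of 16413 genes. Between 2i and FGF2_Activin 4 members were called, 2 in each direction, with 23.5% of genes called, 9.13% higher and 14.4% lower. With the block it was 7 members, 3 higher and 4 lower, where 4514 of 16413 genes were called, 1781 higher and 2733 lower. In the Esrrb line 8 of 10 members were higher in Esrrb_4OHT and none lower, where 16.7% of genes were called, 12.8% higher and 3.87% lower. Of these 8, Wnt3a, Wnt11, Wnt4, Wnt6, Wnt7b and Wnt9a had passed the filter only through Esrrb_4OHT, and Wnt5a had passed only through Esrrb_NT, so the count is a description and its direction was in part fixed by the filter. Without any low-count filter 9 members were called, 8 higher and 1 lower, where 2771 of 27923 genes were called, 2120 higher and 651 lower. The median log2 fold change of the 10 members in CH minus DMSO, Wnt3a included, was 0.99, and over all genes tested it was −0.0022, a description with no test. The 5 comparisons within E14 cells share samples, and none of them is independent of the others.

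Because replicate 1 stood apart, the fits were repeated with replicates 2 and 3 only, an alternative chosen after seeing the data. The members called were then 8 in CH minus DMSO, 7 in 2i minus DMSO, 4 in 2i minus CH, 2 in FGF2_Activin minus DMSO, 7 in 2i minus FGF2_Activin and 8 in Esrrb_4OHT minus Esrrb_NT. Over all genes in these fits 23.1%, 27.1%, 4.67%, 3.04%, 27.6% and 17.2% were called, in the same order, each more than with all 3 replicates. Of the 60 member results, 9 gained a call and 1 lost it, Wnt8a after 4OHT. Wnt3 gained a call in CH minus DMSO (log2 fold change 1.12, adjusted p = 0.00539), FGF2_Activin minus DMSO (3.63, adjusted p = 8.52e-08) and 2i minus FGF2_Activin (−3.29, adjusted p = 6.8e-09). Wnt5a gained one in 2i minus DMSO (−2.10, adjusted p = 2.41e-05), 2i minus CH (−2.07, adjusted p = 0.000153), FGF2_Activin minus DMSO (−1.55, adjusted p = 0.00141) and Esrrb_4OHT minus Esrrb_NT (−1.45, adjusted p = 9.7e-06). The other gains, both in 2i minus FGF2_Activin, were Wnt8a (1.45, adjusted p = 0.000357) and Wnt7b (−2.59, adjusted p = 0.00852).

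**Figure D3:**
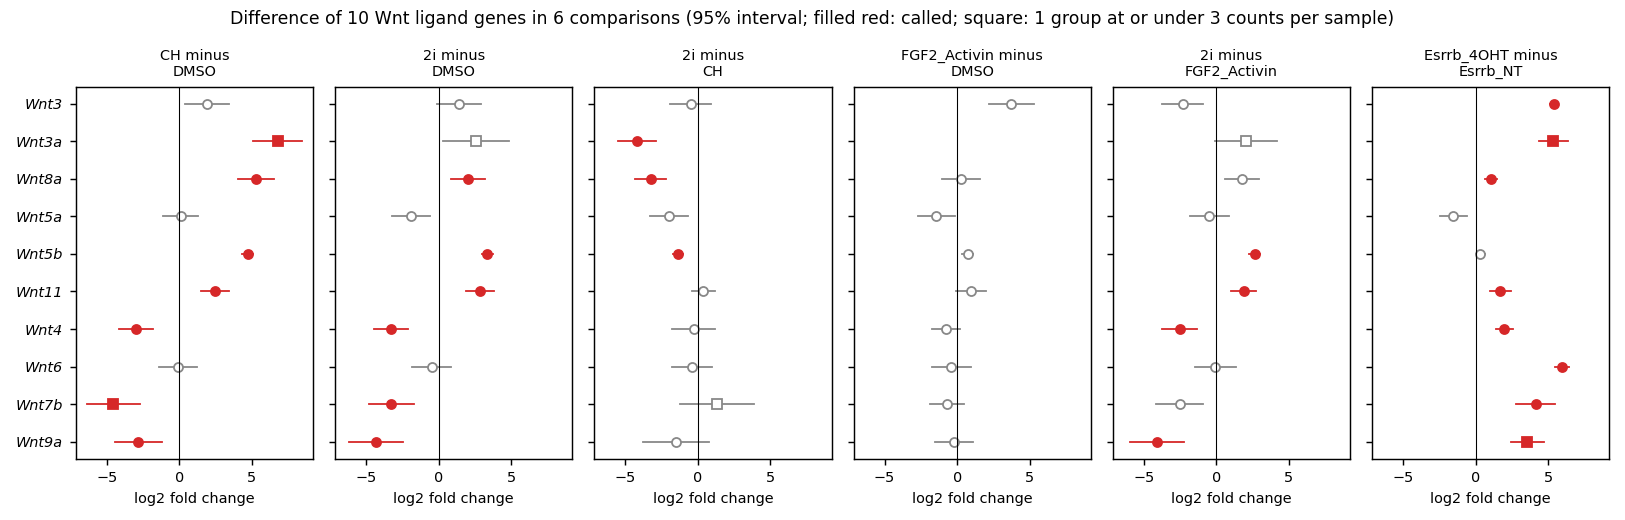
Log2 fold change of each Wnt ligand gene (points) with its 95% interval (lines) in 6 comparisons, filled red where called and open grey where not. Squares mark genes with 1 group at or under 3 counts per sample, and Wnt3a is left out of FGF2_Activin minus DMSO because both groups are at that floor. In Esrrb_4OHT minus Esrrb_NT 8 of the 10 points are filled and lie to the right of 0.

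Among the canonical ligands, Wnt8a and Wnt3a rose under CHIR99021 alone and were lower again when the Mek inhibitor was added, and Wnt3 followed another pattern. Wnt8a lies on chromosome 18 at 34542313 to 34548273 (GRCm38, plus strand). It had 0.214, 0.532 and 1.24 CPM in the DMSO samples and 22.8, 29.3 and 22.7 CPM in CH. The highest DMSO sample was far below the lowest CH sample, and the log2 fold change was 5.29 ± 0.57 (SE, adjusted p = 3.04e-05). In 2i Wnt8a had 2.16, 2.54 and 3.09 CPM, above every DMSO sample and below every CH sample. It was lower than in CH by a log2 fold change of −3.26 ± 0.50 (adjusted p = 0.00273) and higher than in DMSO by 2.03 ± 0.54 (adjusted p = 0.00908). Neither 2i call was firm. The call against DMSO was lost when any sample but DMSO replicate 3 was left out (2i replicates 1, 2 and 3 and DMSO replicates 1 and 2, adjusted p from 0.0129 to 0.0365), and the call against CH was lost without any single 2i sample or without CH replicate 2 (adjusted p from 0.0135 to 0.0193). In FGF2_Activin Wnt8a had 0.242, 1.05 and 1.01 CPM, within the range of DMSO, and the log2 fold change of 0.26 had a 95% interval of −1.02 to 1.54. The difference between 2i and FGF2_Activin was 1.77 ± 0.53 (adjusted p = 0.0157) and was called with the replicate block (1.81 ± 0.40, adjusted p = 0.00199).

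In the Esrrb line, where all cells had CHIR99021, Wnt8a was at 26.0, 40.5 and 41.4 CPM in Esrrb_NT and 58.4, 79.8 and 79.7 CPM in Esrrb_4OHT. All Esrrb_4OHT samples were higher. The log2 fold change of 1.05 ± 0.18 (adjusted p = 0.00118) lay just past the minimum of 1 and fell to 0.86 without Esrrb_NT replicate 1, 0.97 without Esrrb_4OHT replicate 2, 0.98 without Esrrb_4OHT replicate 3 and 1.00 with replicates 2 and 3 only.

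Wnt3a (chromosome 11, 59248033 to 59290752, minus strand) was close to 0 in most conditions. Its counts were 1, 1 and 0 in DMSO and 84, 104 and 47 in CH, or 2.86, 3.40 and 1.88 CPM. With 2 counts in all against 235, the ratio of the levels was 132 with a 95% interval of 36 to 1090 for counting error only. The fitted log2 fold change, 6.77 ± 0.77 (adjusted p = 4.77e-05), depends on the prior count of the fit for a gene this low in DMSO. In 2i Wnt3a had 1, 7 and 6 counts, below every CH sample (log2 fold change −4.18 ± 0.59, adjusted p = 0.00192), and that call was lost without 2i replicate 2 (adjusted p = 0.011) or 2i replicate 3 (adjusted p = 0.0128). The 2i and DMSO samples did not separate fully, since 2i replicate 1 also had 1 count (adjusted p = 0.0564). FGF2_Activin, with 0, 3 and 0 counts, and DMSO were both at or under the floor, so no fold is given for that pair. After 4OHT Wnt3a went from 1, 2 and 2 counts to 51, 94 and 93 counts, a ratio of 42.9 (95% counting interval 18.1 to 133), with an edgeR adjusted p of 2.24e-05 and no overlap between groups. Wnt3a passed the low-count filter only through CH in E14 cells and only through Esrrb_4OHT in the Esrrb line. Its calls could therefore only show these groups as the higher ones.

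Wnt3 (chromosome 11, 103774150 to 103817957, plus strand) had its highest mean among the E14 groups with Fgf2 and Activin A, where 1 of 3 samples lay below the highest CH sample, a pair of groups that was not tested. It had 2.90, 10.6 and 10.8 CPM there and 0.161, 1.19 and 0.464 CPM in DMSO. Every FGF2_Activin sample was above every DMSO sample, and replicate 1 was the lowest of both groups. The log2 fold change of 3.74 ± 0.71 had an adjusted p of 0.0122, short of the threshold. It was called with the replicate block (3.76 ± 0.67, adjusted p = 0.00405) and without FGF2_Activin replicate 1 (4.15, adjusted p = 0.00698). In CH Wnt3 had 3.00, 2.09 and 1.60 CPM and in 2i 2.65, 1.12 and 1.03 CPM. CH did not overlap DMSO but missed the threshold (log2 fold change 1.89 ± 0.69, adjusted p = 0.047), and 2i overlapped DMSO (1.40 ± 0.70, adjusted p = 0.12). Between CH and 2i the difference was −0.49 with a 95% interval of −1.90 to 0.93. Against FGF2_Activin, 2i was lower by a log2 fold change of −2.34 ± 0.65 (adjusted p = 0.0106). With the replicate block that difference was called (−2.28 ± 0.61, adjusted p = 0.00637), as it was without 2i replicate 1 (−2.89, adjusted p = 0.00877) or FGF2_Activin replicate 1 (−2.73, adjusted p = 0.00377).

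The change of Wnt3 in the Esrrb line was much firmer. Esrrb_NT samples had 0.751, 0.725 and 0.886 CPM and Esrrb_4OHT samples 34.7, 30.6 and 32.7 CPM. The groups were far apart and their replicates close together, at a difference of 5.40 ± 0.13 on the log2 scale (adjusted p = 1.66e-07) that stayed between 5.33 and 5.49 when each sample was left out in turn. Wnt9b, which lies 24.3 kb from Wnt3 on the opposite strand, had 8, 20 and 23 counts in Esrrb_4OHT and 4 in all 3 Esrrb_NT samples together.

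Wnt5b dominated the ligands best known for β-catenin-independent signalling, and among the members it had the smallest SE of its change from DMSO in CH. Wnt5b (chromosome 6, 119432531 to 119544347, minus strand) had 2.62, 2.07 and 1.78 CPM in DMSO, 59.5, 58.3 and 52.9 CPM in CH, and 17.7, 25.3 and 23.6 CPM in 2i. These 3 groups did not overlap. The log2 fold change was 4.71 ± 0.18 in CH minus DMSO (adjusted p = 2.06e-08), 3.35 ± 0.17 in 2i minus DMSO (adjusted p = 9.63e-08) and −1.36 ± 0.15 in 2i minus CH (adjusted p = 0.000532). All 3 stayed called without any single sample. FGF2_Activin had 3.47, 3.62 and 3.65 CPM, each above every DMSO sample, and the log2 fold change of 0.72 ± 0.17 was not called (adjusted p = 0.034). The difference of 2i from FGF2_Activin was 2.63 ± 0.16 (adjusted p = 3.2e-07). In the Esrrb line Wnt5b was high in both groups, with 53.9, 64.0 and 64.6 CPM in Esrrb_NT and 59.8, 79.6 and 84.4 CPM in Esrrb_4OHT. Those groups overlapped, and the log2 fold change of 0.33 had a 95% interval of 0.04 to 0.62 (adjusted p = 0.0512).

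Wnt11 (chromosome 7, 98835112 to 98855195, plus strand) rose with CHIR99021 at a low level. It had 0.134, 0.313 and 0.116 CPM in DMSO, 1.26, 0.980 and 0.919 CPM in CH and 0.940, 1.36 and 1.81 CPM in 2i. CH and 2i both lay above all DMSO samples and overlapped each other, with log2 fold changes from DMSO of 2.46 ± 0.44 (adjusted p = 0.000961) and 2.84 ± 0.43 (adjusted p = 0.000247). The difference between 2i and CH was 0.38 with a 95% interval of −0.42 to 1.17. In FGF2_Activin Wnt11 had 0.272, 0.296 and 0.556 CPM, overlapping DMSO (log2 fold change 0.96 ± 0.47, adjusted p = 0.339). 2i was higher than FGF2_Activin by 1.87 ± 0.40 (adjusted p = 0.0022), a call lost without 2i replicate 3 (adjusted p = 0.0109), FGF2_Activin replicate 1 (adjusted p = 0.0112) or FGF2_Activin replicate 2 (adjusted p = 0.0133). Esrrb_NT samples had 0.751, 0.363 and 0.365 CPM and Esrrb_4OHT samples 1.25, 1.74 and 1.69 CPM. The groups did not overlap (log2 fold change 1.69 ± 0.32, adjusted p = 0.00203), and this call was lost without Esrrb_NT replicate 2 (adjusted p = 0.0116) or replicate 3 (adjusted p = 0.0118). Wnt11 passed the low-count filter in this line only through Esrrb_4OHT, so a call could only be higher there. An exon overlap of 8.8% with Gm8398 on the opposite strand leaves part of the Wnt11 count uncertain, as strand was not used in counting.

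Wnt5a (chromosome 14, 28504750 to 28527448, plus strand) did not follow Wnt5b. It had 0.749, 2.32 and 3.94 CPM in DMSO, 1.36, 2.84 and 3.20 CPM in CH, and 0.383, 0.796 and 0.625 CPM in 2i. Replicate 1 was the lowest sample of each of these groups. CH and DMSO overlapped almost completely (log2 fold change 0.09, 95% interval −1.11 to 1.30). 2i was below CH in every sample (log2 fold change −2.02 ± 0.60, adjusted p = 0.0724) and overlapped DMSO in 1 sample (−1.92 ± 0.60, adjusted p = 0.02). Neither was called, but with the replicate block both were (−2.03 ± 0.29 against CH, adjusted p = 0.000925, and −1.82 ± 0.29 against DMSO, adjusted p = 0.000251). Without DMSO replicate 1 the difference from DMSO was also called (−2.36, adjusted p = 0.00256). FGF2_Activin samples had 0.453, 0.823 and 1.29 CPM, and the log2 fold change from DMSO was −1.44 ± 0.58 (adjusted p = 0.233) or, with the block, −1.35 ± 0.28 (adjusted p = 0.00879, called). Between 2i and FGF2_Activin it was −0.48 with a 95% interval of −1.84 to 0.88.

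After 4OHT Wnt5a was the one member with a lower mean. It had 1.66, 3.52 and 3.07 CPM in Esrrb_NT and 0.384, 1.08 and 1.27 CPM in Esrrb_4OHT, and the groups did not overlap. The log2 fold change of −1.55 ± 0.41 had an adjusted p of 0.0103. It was called with the block (−1.56 ± 0.23, adjusted p = 7.58e-05) and without Esrrb_NT replicate 1 (−1.81, adjusted p = 0.00327). Wnt5a passed the low-count filter in this line only through Esrrb_NT, so a call could only be lower in Esrrb_4OHT.

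Promoter sequence is given for Wnt5b, Wnt11, Wnt3 and Wnt6, as a description. RefSeq windows of 250 bases before an annotated start (GRCm38.p6) were used for 7 of the 10 members, in 10 windows. Wnt5a, Wnt7b and Wnt8a are named only, and the counts of members' windows leave them out. The letter forms of the TCF/LEF motif taken (CTTTGAA or CTTTGAT or CTTTGTA or CTTTGTT) were searched on both strands, and 14.8% of 32851 windows of all genes held at least 1. Among the members' 10 windows it was 1 of Wnt5b and 1 of Wnt11, and the others, those left of these 2 genes and that of Wnt3a included, held none. Any relation of these matches to the response to CHIR99021 was not tested. The Esrrb motif TNAAGGTCA was in 1.14% of all windows and in none of the members' windows, Wnt3 and Wnt6 included, which had the largest fold changes after 4OHT among members expressed above the floor in both Esrrb groups. These letters not being found in so short a window says nothing about binding elsewhere. The sequences are shown 5′ to 3′ on the gene's strand, each ending at the base before the start, with TCF/LEF matches in capitals (in Wnt11 the match is on the opposite strand). Wnt5b is chr6:119449387-119449636 (minus strand, the most downstream of its 3 starts), Wnt11 is chr7:98834862-98835111 (plus strand), Wnt3 is chr11:103773925-103774174 (plus strand) and Wnt6 is chr1:74771642-74771891 (plus strand).
Wnt5b: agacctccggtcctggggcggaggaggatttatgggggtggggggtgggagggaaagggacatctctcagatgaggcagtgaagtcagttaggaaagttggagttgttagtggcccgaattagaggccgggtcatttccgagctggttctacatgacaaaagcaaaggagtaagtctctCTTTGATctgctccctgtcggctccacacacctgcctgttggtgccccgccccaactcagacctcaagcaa
Wnt11: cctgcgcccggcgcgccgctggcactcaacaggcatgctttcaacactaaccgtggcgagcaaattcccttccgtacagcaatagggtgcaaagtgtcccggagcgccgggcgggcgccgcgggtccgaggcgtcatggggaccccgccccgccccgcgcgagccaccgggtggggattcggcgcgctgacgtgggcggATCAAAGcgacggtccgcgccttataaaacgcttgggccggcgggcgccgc
Wnt3: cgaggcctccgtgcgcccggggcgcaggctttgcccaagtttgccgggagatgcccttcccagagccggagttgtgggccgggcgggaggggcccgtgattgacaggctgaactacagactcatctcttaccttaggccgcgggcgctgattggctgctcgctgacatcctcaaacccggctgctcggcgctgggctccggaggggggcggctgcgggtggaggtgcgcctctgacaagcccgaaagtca
Wnt6: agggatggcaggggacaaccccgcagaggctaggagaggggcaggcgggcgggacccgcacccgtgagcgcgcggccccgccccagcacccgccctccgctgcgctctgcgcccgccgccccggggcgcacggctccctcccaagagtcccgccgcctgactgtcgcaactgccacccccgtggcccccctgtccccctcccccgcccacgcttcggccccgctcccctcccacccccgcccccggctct
The match in Wnt5b lies 71 to 65 bases before the start and the one in Wnt11 51 to 45 bases before it. Wnt3 and Wnt6 hold 22 and 28 CpG dinucleotides in these windows, Wnt11 holds 37 and this Wnt5b window 7, where the median window of all genes holds 6.

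Wnt4, Wnt7b and Wnt9a were lower under CHIR99021 than in DMSO, in E14 cells, while Wnt6 showed no such difference. Wnt4 (chromosome 4, 137277489 to 137299726, plus strand), known for its role in kidney and gonad development, had 1.95, 0.564 and 0.928 CPM in DMSO. It had 0.102, 0.131 and 0.200 CPM in CH and 0.0697, 0.147 and 0.125 CPM in 2i. No CH or 2i sample reached the lowest DMSO sample, and the log2 fold changes were −2.99 ± 0.53 in CH (adjusted p = 0.000957) and −3.28 ± 0.53 in 2i (adjusted p = 0.000417). With 0.936, 0.592 and 0.522 CPM, FGF2_Activin overlapped DMSO (log2 fold change −0.75 ± 0.43, adjusted p = 0.438). 2i was lower than FGF2_Activin by −2.52 ± 0.55 (adjusted p = 0.00272), a call lost without 2i replicate 1 (adjusted p = 0.0129), 2i replicate 3 (adjusted p = 0.0112) or FGF2_Activin replicate 1 (adjusted p = 0.0119). Part of the Wnt4 transcript, 10.3%, shares near-identical sequence with 342 other genes, which makes its count less certain.

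Wnt9a (chromosome 11, 59306928 to 59333552, plus strand) was uneven among the DMSO samples, with 2.60, 1.00 and 0.425 CPM. It had 0.375, 0.0980 and 0.0799 CPM in CH and 0.139, 0.0295 and 0.0313 CPM in 2i, all below the lowest DMSO sample. The log2 fold change was −2.84 ± 0.73 in CH (adjusted p = 0.00897) and −4.33 ± 0.84 in 2i (adjusted p = 0.00142). The CH call was lost without DMSO replicate 1 (−1.93, adjusted p = 0.0356), DMSO replicate 2 (adjusted p = 0.0145), CH replicate 2 (adjusted p = 0.0404) or CH replicate 3 (adjusted p = 0.0382), and no single sample ended the 2i call. FGF2_Activin samples, at 1.54, 1.02 and 0.904 CPM, lay within the DMSO range (log2 fold change −0.24, 95% interval −1.55 to 1.08), and 2i was lower than FGF2_Activin by −4.09 ± 0.85 (adjusted p = 0.00204), a call lost without 2i replicate 2 (adjusted p = 0.0121) or 2i replicate 3 (adjusted p = 0.012). Wnt9a and Wnt3a are neighbours, 16.2 kb apart on opposite strands, and in CH minus DMSO Wnt3a was called higher and Wnt9a lower.

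Wnt7b (chromosome 15, 85535437 to 85582473, minus strand) had 35, 14 and 14 counts in DMSO and 0, 2 and 0 counts in CH. The ratio of DMSO to CH was 28.1 with a 95% counting interval of 7.47 to 237 (edgeR adjusted p = 0.0012). In 2i it had 2, 0 and 4 counts, again below every DMSO sample (log2 fold change −3.26 ± 0.69, adjusted p = 0.00245). FGF2_Activin had 13, 13 and 10 counts, all below the DMSO samples in count and in CPM, but the log2 fold change of −0.72 had a 95% interval of −1.90 to 0.46. 2i was lower than FGF2_Activin by −2.54 ± 0.73 (adjusted p = 0.0128), and this was called with the replicate block (−2.53 ± 0.70, adjusted p = 0.00823). Of the exons of Wnt7b, 6.61% overlap AU022754 on the opposite strand.

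Some markers of other cell types were also lower in CH and 2i. Summed over the fibroblast list (Col1a1, Col1a2, Col3a1, Thy1, Twist1 and Postn), the level was 19.5 to 50.5 CPM in DMSO, 16.5 to 27.0 in FGF2_Activin, 6.80 to 9.11 in CH and 2.75 to 3.36 in 2i, with 3 of 6 genes at a mean of 1 CPM in DMSO and Postn at or under 3 counts in every E14 sample. Most of that sum was Thy1, at 27.3 CPM in DMSO and 5.23 CPM in CH, the 1 gene of 3 tested that was called lower in CH, and in 2i Thy1 and Twist1 were called lower. The primitive endoderm list (Gata4, Gata6, Sox17, Sox7, Pdgfra and Dab2) summed to 8.97 to 10.2 CPM in DMSO, 5.86 to 6.42 in FGF2_Activin, 2.64 to 3.61 in CH and 1.56 to 1.88 in 2i, with 3 of 6 genes at 1 CPM in DMSO. All 6 were tested, 2 were called lower in CH (Sox7 and Dab2) and 3 in 2i (also Gata6), while Pdgfra had 0.264 CPM in DMSO and 0.627 CPM in CH and was not called. Gata6 had at most 3 counts in the 2i samples and passed the low-count filter through other groups, so that call could only be lower. The part of the markers of both lists in these results was not tested.

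Wnt6 (chromosome 1, 74771892 to 74785322, plus strand) stayed between 0.0348 and 0.656 CPM in all 12 E14 samples and was called in none of the 5 comparisons there. In the Esrrb line it went from 0.536, 0.259 and 0.469 CPM in Esrrb_NT to 27.7, 21.9 and 26.5 CPM in Esrrb_4OHT. This was the largest log2 fold change of any member after 4OHT, 5.93 ± 0.21 (adjusted p = 5.99e-07), and stayed between 5.67 and 6.13 when each sample was left out in turn. Wnt10a, which lies 6.19 kb from Wnt6 on the same strand, had 15, 11 and 19 counts in Esrrb_4OHT and 1 in all of Esrrb_NT (edgeR adjusted p = 0.000357). Wnt6 and Wnt10a both passed the low-count filter in this line only through Esrrb_4OHT, so a call could only be higher there.

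Wnt4, Wnt7b and Wnt9a also rose after 4OHT. Wnt4 had 7 counts in each Esrrb_NT sample and 33, 31 and 27 counts in Esrrb_4OHT (log2 fold change 1.98 ± 0.25, adjusted p = 0.000218). Wnt7b went from 6, 3 and 3 counts to 132, 43 and 61 counts (log2 fold change 4.15 ± 0.59, adjusted p = 0.000412), with replicate 1 well above the others, and remained called without it. Wnt9a had 3, 2 and 0 counts in Esrrb_NT and 22, 23 and 23 counts in Esrrb_4OHT, a ratio of 12.3 (95% counting interval 5.00 to 39.0, edgeR adjusted p = 0.000341). For each of the 3 genes every Esrrb_4OHT sample lay above every Esrrb_NT sample. All 3 passed the low-count filter in this line only through Esrrb_4OHT, so a call could only be higher there. Of the fibroblast list 3 of 6 genes were tested, and Col1a2 (0.209 to 2.70 CPM) and Twist1 (1.16 to 2.83 CPM) were called higher in Esrrb_4OHT and Thy1 lower (22.9 to 6.15 CPM). The summed level, 19.6 to 27.8 CPM in Esrrb_NT and 10.2 to 14.3 CPM in Esrrb_4OHT, was mostly Thy1. Of the primitive endoderm list 4 of 6 were tested, with Gata4 (0.563 to 1.32 CPM) and Pdgfra (0.631 to 2.77 CPM) called higher and Sox7 lower (1.07 to 0.110 CPM), and the sum was 2.12 to 3.59 CPM in Esrrb_NT and 5.09 to 6.05 CPM in Esrrb_4OHT. Col1a2, Gata4 and Pdgfra passed the low-count filter only through Esrrb_4OHT, and Sox7 only through Esrrb_NT. The directions of those calls were therefore fixed by the filter. The part of the markers of both lists in these results was not tested.

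Primitive streak markers (T, Mixl1, Eomes, Gsc, Mesp1 and Fgf8) did not all go the same way. In CH minus DMSO 4 of the 6 were tested, T, Mixl1 (0.167 to 3.02 CPM) and Fgf8 (0.184 to 5.83 CPM) were called higher and Eomes lower (11.5 to 2.71 CPM). In 2i minus DMSO T was called higher and Eomes lower (3.81 CPM in 2i), and Mixl1 (0.149 CPM) and Fgf8 (0.188 CPM) were not called. After 4OHT T, Mixl1 and Fgf8 were called higher, and Eomes was not called (24.7 to 21.0 CPM). Mixl1 passed the low-count filter in that line only through Esrrb_4OHT, so its call could only be higher. The summed level of the list, mostly T in CH, 2i and Esrrb_4OHT, was 8.97 to 14.1 CPM in DMSO, 13.6 to 23.0 in FGF2_Activin, 444 to 681 in CH and 83.7 to 118 in 2i, and in the Esrrb line 53.3 to 76.97 in Esrrb_NT and 339 to 492 in Esrrb_4OHT. In CH and in Esrrb_4OHT 4 of the 6 were at a mean of 1 CPM or more, while Gsc stayed at or under 3 counts in every sample of both groups and Mesp1 in CH. The trophoblast list summed to 21.4 to 30.7 CPM in DMSO and 49.5 to 95.9 CPM in CH, where Cdx2 alone went from 0.0933 to 63.7 CPM and was called higher. Of the 2 others tested, Eomes was called lower and Krt7 had 13.7 CPM in DMSO and 1.09 CPM in CH (adjusted p = 0.0201, not called). The neural list summed to 0.801 to 3.32 CPM in E14 cells, with at most 1 of 6 genes at a mean of 1 CPM in any group. In the Esrrb line it summed to 61.0 to 69.0 CPM in Esrrb_NT and 60.3 to 64.4 CPM in Esrrb_4OHT. Only 2 of 6 genes in Esrrb_NT and 1 of 6 in Esrrb_4OHT were at a mean of 1 CPM or more, so these sums rest on few genes. The part of any of these in the ligand results was not tested.

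The genes whose pattern was most like a ligand's were sought over the 12 E14 samples, by Pearson's correlation of log2(CPM + 1) over the 13221 genes averaging 1 CPM or more, as a description. For Wnt5b they were Grsf1 (r = 0.993), Sdcbp2 (r = 0.993) and Hoxb9 (r = 0.988). For Wnt8a they were Evx1 (r = 0.979), its opposite-strand neighbour Evx1os (r = 0.977) and Krt23 (r = 0.974), and for Wnt3 they were Fam19a4 (r = 0.934), Psmb7 (r = 0.924) and Adgre5 (r = 0.909). The samples fall into 4 treatment groups, which these values mostly describe, and Evx1 and Evx1os may share reads.

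The other 9 Wnt genes were nearly all below the level called detected here, though Wnt2b, Wnt7a and Wnt16 had counts in all 18 samples. Wnt1 had 0 counts in all 18 samples and Wnt2 at most 2, and 8 of the 9 had no group at a mean of 1 CPM. Only Wnt10b passed that level, in Esrrb_4OHT, with 25, 31 and 23 counts or 1.20, 1.46 and 1.08 CPM against 0, 1 and 0 counts in Esrrb_NT (edgeR adjusted p = 6.06e-05). In E14 cells 3 of the 9 passed the low-count filter, Wnt2b, Wnt7a and Wnt16, and in CH minus DMSO 0 of 3 were called (unadjusted p from 0.0599 to 0.88). Wnt16 was called lower in 2i than in DMSO (log2 fold change −2.00 ± 0.54, adjusted p = 0.00956) at 0.0631 against 0.270 CPM. In the Esrrb line Wnt10a, Wnt10b and Wnt16 passed the filter, each only through its counts in Esrrb_4OHT, so any call among them could only be higher there and their number is no result. Wnt16 was not called (1.01 ± 0.33, adjusted p = 0.0256).

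The machinery that makes and releases Wnt ligands changed in part. Of 10 processing and secretion genes, 3 were called higher and 1 lower in CH minus DMSO, where 7.51% of all genes were called higher and 10.2% lower. The same counts held for 2i minus DMSO (8.37% and 14% of all genes) and 2i minus FGF2_Activin (9.13% and 14.4%). After 4OHT 2 were called higher, where 12.8% of all genes were. Vps26a, a subunit of the retromer complex that recycles Wls, rose by 1.08 ± 0.11 in CH (adjusted p = 1.8e-05). The other 5 of the 6 most abundant genes of this list, Vps35, Tmed2, Snx3, Vps29 and Tmed5, had log2 fold changes of −0.18 to 0.45 in CH minus DMSO and were not called. Porcn, Notum, Wls and Trabd2b are given in addition, chosen after their values were seen. Porcn rose from 1.53 to 23.6 CPM in CH (log2 fold change 3.96 ± 0.32, adjusted p = 3.52e-06) and to 19.9 CPM in 2i (3.71 ± 0.31, adjusted p = 3.31e-06). After 4OHT its log2 fold change was −0.43 ± 0.09 (adjusted p = 0.00407), under the minimum of 1. Wls was not called in CH minus DMSO (0.49 ± 0.62, adjusted p = 0.563) and rose after 4OHT from 5.13 to 41.5 CPM (3.05 ± 0.22, adjusted p = 1.27e-05). Notum, a secreted enzyme that removes the lipid from Wnt proteins, rose from 0.993 to 46.6 CPM in CH (5.54 ± 0.21, adjusted p = 2.06e-08) and showed no such difference after 4OHT (0.05, 95% interval −0.50 to 0.60). Of the Notum exons, 38.1% overlap genes on the opposite strand. Trabd2b, a protease that cleaves Wnt proteins, was at or under the floor in CH and Esrrb_NT. In the Esrrb line it passed the low-count filter only through Esrrb_4OHT, so a call could only be higher there. It had 29 counts in all DMSO samples and 4 in CH, a ratio of 6.48 (95% counting interval 2.27 to 25.4, edgeR adjusted p = 0.000905), and 5 counts in Esrrb_NT and 55 in Esrrb_4OHT, a ratio of 9.91 (95% counting interval 4.00 to 31.7, edgeR adjusted p = 0.00064).

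Of the 6 co-receptor genes, Ror2, a receptor of Wnt5a-type ligands, was called higher in CH (log2 fold change 2.89 ± 0.49, adjusted p = 0.000698) and in 2i (2.58 ± 0.48, adjusted p = 0.00107) than in DMSO. Ror1 was called lower in FGF2_Activin than in DMSO (−2.39 ± 0.41, adjusted p = 0.00759), and Ptk7 was called higher after 4OHT (1.66 ± 0.10, adjusted p = 5.63e-06). The others, Lrp5, Lrp6 and Ryk, were called in none of the 6 comparisons. Between 2i and FGF2_Activin, Ror1 and Ror2 were called higher in 2i.

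Of the 10 canonical target genes, CH minus DMSO called 4 as higher, 2i minus DMSO 4 and Esrrb_4OHT minus Esrrb_NT 6, with none lower in these comparisons. Over all genes 7.51%, 8.37% and 12.8% were called higher, in the same order. In 2i minus CH 2 targets were called lower and none higher, where 1.67% of all genes were lower. Between 2i and FGF2_Activin 5 were called higher and 2 lower in 2i, against 9.13% and 14.4% of all genes. FGF2_Activin minus DMSO called none. Axin2, a negative regulator of the pathway, had 7.83 CPM in DMSO, 194.5 CPM in CH and 168 CPM in 2i (log2 fold change 4.64 ± 0.25 in CH, adjusted p = 2.23e-07). T, the primitive streak factor Brachyury that is also on the streak list, rose from 0.469 to 534 CPM in CH (10.16 ± 0.36, adjusted p = 1.77e-08) and from 43.3 to 396 CPM after 4OHT (3.23 ± 0.15, adjusted p = 2.2e-06). Sp5, a transcription factor, had 4 counts in the DMSO samples together and 18232 in CH, a ratio of 5100 (95% counting interval 1990 to 18700). The other 3 of the 6 most abundant targets, Lef1, Tcf7 and Znrf3, were not called in CH minus DMSO (log2 fold changes 0.36, 0.33 and 0.92) or after 4OHT (−0.10, 0.59 and 0.78). Axin2 was not called after 4OHT either (0.28 ± 0.05, adjusted p = 0.00123).

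**Figure D4:**
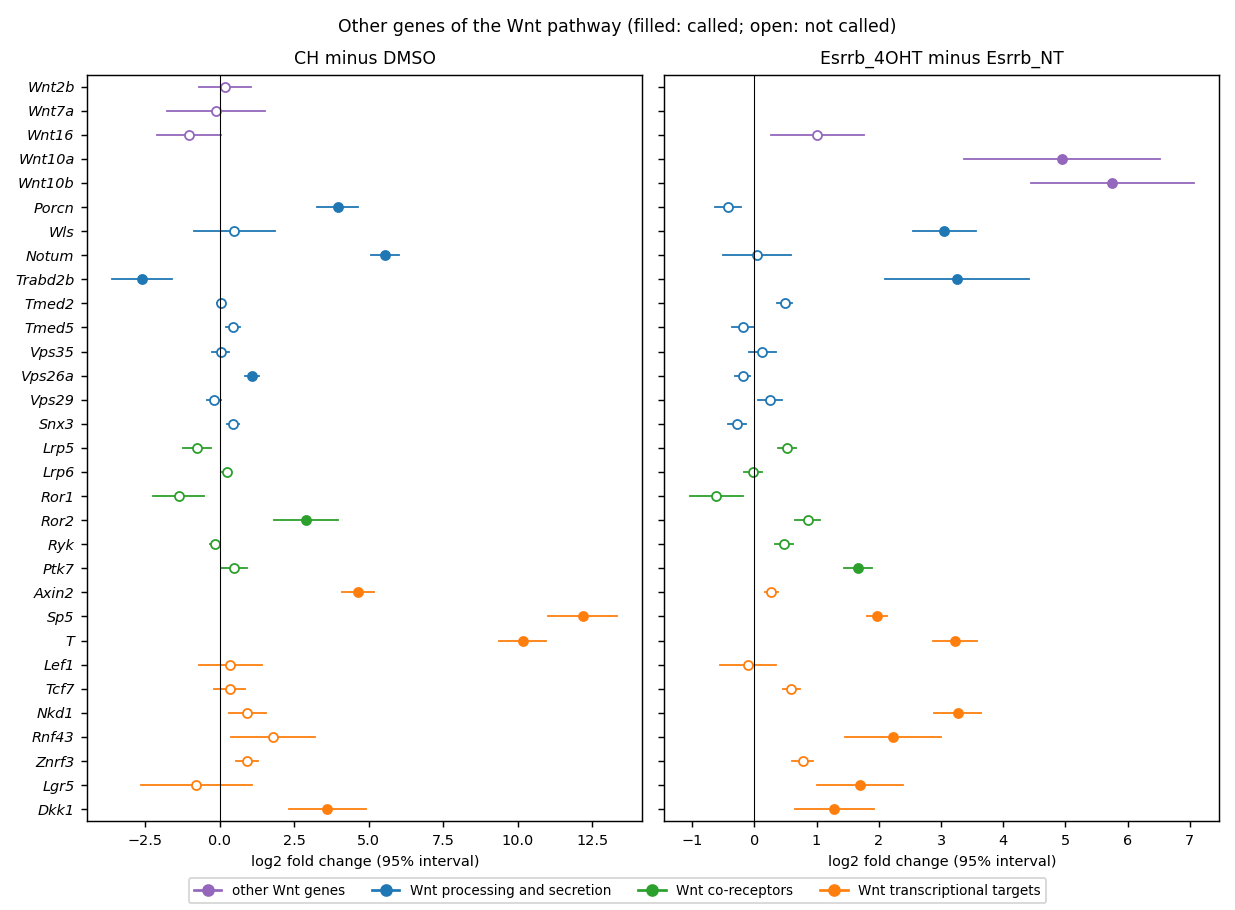
Log2 fold change (points) with its 95% interval (lines) of the other genes of the Wnt pathway that passed the low-count filter, in CH minus DMSO (left) and Esrrb_4OHT minus Esrrb_NT (right), with separate x scales, coloured by list and filled where called. Porcn and Notum are filled on the left and open on the right, Wls is open on the left and filled on the right, and the points of Sp5 on the left, of Wnt10a and Wnt10b on the right and of Trabd2b on both sides depend on the prior count of the fit.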

How the data were processed

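RNA-seq was analysed for 18 mouse ES cell samples in 6 groups of 3, grouped by the sample titles. Per the labels and the study's methods, the authors selected poly(A) RNA, made directional libraries, aligned reads with TopHat2 to mm10 and counted them per Ensembl gene with HTSeq without strand, so overlapping genes on opposite strands cannot be told apart. The deposited values are raw counts for 49671 genes, of which 49326 were matched to a symbol.

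Counts were tested with edgeR 4.0.16 (R 4.3.3, limma 3.58.1), using TMM factors, filterByExpr and the quasi-likelihood test, with Benjamini-Hochberg adjustment over 16413 genes in a fit of the 12 E14 samples and 14893 genes in a fit of the 6 Esrrb samples. Calls used the limits of the study, an adjusted p below 0.01 together with a log2 fold change beyond 1 in either direction. Levels are CPM with TMM factors over all 18 samples, divided by union exon length where genes are compared. Counting intervals (95%) and the floor of 3 counts cover counting error only.

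Replicate numbers shared between groups were checked for pairing. Deviations from group means correlated at 0.357 to 0.825 between same-numbered E14 samples (18 pairs) and 0.383 to 0.561 in the Esrrb line (3 pairs), all over the 0.1 set as the bar for pairing, and averaged −0.219 and −0.182 between different numbers. Among replicates 2 and 3 alone, same-numbered and different-numbered E14 pairs correlated alike (means 0.519 and 0.518), as did those of the Esrrb line (0.384 and 0.378), so the check sets replicate 1 apart and does not tell replicate 2 from replicate 3. The numbers come from the sample titles. The fit without the block was kept as the main one, and values with the replicate block are given where a call changes. The main fit leaves the shift of replicate 1, which the groups share, in the spread between samples.

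On simulated counts for CH minus DMSO (16036 genes) 69.7% of 4-fold and 67.7% of 3-fold changes were recovered. For the Esrrb comparison (14663 genes) it was 95.8% and 87.9%. The simulated samples were drawn independently, without the shift of replicate 1, and the changed genes had all levels of expression. These rates therefore need not hold for the members. DESeq2 1.42.0, other filters and thresholds, and leaving out each sample were tried as alternatives. The genes named beside the members were, per list, up to 6 that passed the filter with the largest mean CPM, and for Wnt5b, Wnt8a and Wnt3 the 3 genes with the most similar pattern. The members and lists were chosen with earlier results of these data known. Promoter windows came from RefSeq.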

Additional observations from a re-analysis of the deposited data

How the results depend on the processing

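Of the 360 member results with 1 sample left out, 315 kept direction and side of the threshold, 28 lost a call, 5 gained one and 12 changed sign. Of 475 under other settings the numbers were 427, 15, 28 and 5. The 17 sign changes were in results that were not called: with 1 sample left out Wnt5a (−0.3397, −0.0233 and −0.1246) and Wnt6 (3e-04) in CH minus DMSO, Wnt6 in 2i minus DMSO (0.0319) and 2i minus CH (0.1209), Wnt8a (−0.1942 and −0.0464), Wnt9a (0.6731) and Wnt3a (−2.61) in FGF2_Activin minus DMSO and Wnt6 in 2i minus FGF2_Activin (0.4352 and 0.4407), and with replicates 2 and 3 only Wnt5a in CH minus DMSO (−0.0254), Wnt6 in 2i minus DMSO (0.0208), 2i minus CH (0.1111) and 2i minus FGF2_Activin (0.1495) and Wnt9a in FGF2_Activin minus DMSO (0.3913). With 1 sample left out these values ranged from −0.3397 to 0.6976 (Wnt5a) and −0.1839 to 3e-04 (Wnt6) in CH minus DMSO, from −1.3347 and −1.2465 up for Wnt6 in 2i minus DMSO and 2i minus CH, up to 1.0455 (Wnt8a) and 1.1305 (Wnt3a) and from −0.6409 (Wnt9a) in FGF2_Activin minus DMSO, and from −0.9333 for Wnt6 in 2i minus FGF2_Activin. The causes were not tested. The replicate block gained 8 member calls and lost 0 of 28, and changed no other member call.

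Counts of genes and members called, in the order CH minus DMSO, 2i minus DMSO, 2i minus CH, FGF2_Activin minus DMSO, 2i minus FGF2_Activin and Esrrb_4OHT minus Esrrb_NT, were 2907, 3668, 326, 205, 3857 and 2485 genes and 7, 6, 3, 0, 4 and 8 members. Leaving out 1 sample gave 2350 to 2862, 3114 to 3704, 144 to 275, 112 to 171, 3347 to 3575 and 2183 to 2460 genes and 6 to 7, 5 to 6, 1 to 3, 0 to 1, 1 to 4 and 7 to 8 members. With no minimum fold change 4750, 5821, 6193 (2i minus FGF2_Activin) and 6621 (Esrrb) genes were called. Genes with at least 10 counts in every sample, 12935 in E14 cells, gave 1755, 2236 and 2332 (2i minus FGF2_Activin) genes. Only 2 members were tested under that filter in E14 cells and 3 in the Esrrb line. Of these 2, 1 was called in CH minus DMSO, 2i minus DMSO, 2i minus CH and 2i minus FGF2_Activin and 0 in FGF2_Activin minus DMSO. In the Esrrb line 2 of the 3 were called. A test against the minimum fold gave 1308, 2100, 47, 57, 2231 and 967 genes, with 0 members in 2i minus CH and 2 in 2i minus FGF2_Activin. In 2i minus CH and FGF2_Activin minus DMSO, DESeq2 gave 597 and 374 genes, the replicate block 672 and 424, replicates 2 and 3 only 768 and 499, and the 6 compared samples alone 100 and 87. DESeq2 called 1 member in FGF2_Activin minus DMSO and 7 in 2i minus FGF2_Activin, and the block and replicates 2 and 3 each 2 and 7. In 2i minus FGF2_Activin these fits called 4114, 4514 and 4541 genes, in that order. Without the low-count filter 1 member was called in FGF2_Activin minus DMSO, where 243 of 29782 genes were called.

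With 1 sample left out, 2 to 4 members were detected in DMSO, 3 to 4 in FGF2_Activin, 5 to 6 in CH, 4 in 2i, 3 in Esrrb_NT and 9 to 10 in Esrrb_4OHT. At 0.5 CPM it was 7 in DMSO and 6 in FGF2_Activin. Per longest transcript 8 of 10 members kept their rank in FGF2_Activin. Wnt3a, Wnt7b and Wnt9a have few counts in several groups, which limits their precision.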
